A study of Bos taurus with 6 samples.

Results

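The matrix that surrounds the oocyte before ovulation is built on hyaluronan, a long sugar polymer, and 5 genes of that matrix were followed here in bovine granulosa cells. The members were PTX3, TNFAIP6, HAS2, VCAN and CD44, taken as the probes whose gene symbol in the platform annotation matched one of these names. Each gene had 1 probe, so 5 of the 43794 gene probes of the array were members, and all 5 were among the 26688 probes tested.

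Granulosa cells came from dairy cows after calving, and 2 groups were compared. The first had received folic acid (320 mg) together with vitamin B12 (10 mg), given into muscle. The second had received physiological saline (0.9%). Both were treated from 3 weeks before calving until 57 ± 2 days after it. Cows of both groups had also been given prostaglandin F2 alpha, which ends the life of the corpus luteum and lets a new follicle mature. The cells were aspirated 66 ± 2 h after its second dose, from preovulatory follicles of at least 12 mm, on day 57, or on day 71 when day 57 had offered no follicle of that size. The sources used here give no breed and no age.

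Each of 6 two-colour arrays carried RNA of the vitamin group in one dye and RNA of the saline group in the other. Vitamin RNA carried Cy5 on arrays 1, 3 and 5 and Cy3 on the others. By the series design there were 3 biological replicates, each measured on 2 dye-swapped arrays. Arrays 1 and 2 formed replicate 1 on one slide, and arrays 3 and 4 (replicate 2) and 5 and 6 (replicate 3) lay on another slide. The pairing was inferred from the ratios, since the labels do not name it, and it has no effect on a mean. Whether a replicate stands for a single animal or for a pool is unstated, so the tests measure the spread between these 3 pairs of RNA samples. The small number of such pairs, more than that of arrays, limits the precision.

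At the LH surge the cells around the oocyte secrete hyaluronan into the spaces between them, and the cumulus swells into a sticky, elastic mass. HAS2 is the enzyme in the cell membrane that extrudes the hyaluronan chain. TNFAIP6, also called TSG-6, transfers the heavy chains of inter-alpha-trypsin inhibitor from blood plasma onto hyaluronan, and PTX3, a secreted multimeric pentraxin, binds those heavy chains and ties the strands together. VCAN, or versican, is a large proteoglycan that binds hyaluronan and is cut by the protease ADAMTS1. CD44 is a hyaluronan receptor at the cell surface and is also abundant on leukocytes. In mice, loss of Ptx3 or of Tnfaip6 leaves the cumulus matrix unstable and lowers fertility.

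Granulosa markers were detected on the arrays, with FSHR, the receptor of follicle-stimulating hormone, above the negative controls in all 12 readings (6 per group). CYP19A1, the aromatase that makes estradiol, was detected in 6 of 6 vitamin readings and 5 of 6 saline readings. The probe of FOXL2, a granulosa transcription factor, was detected in 4 of 12 readings and not tested. In the saline group, replicate 1 stood apart. The summed normalised intensity of 16 leukocyte markers was 5794, 7226 and 5140 in the vitamin samples of replicates 1, 2 and 3, against 83726, 2802 and 5339 in the saline samples. The corresponding sums of 11 granulosa markers were 231417, 263704 and 252404 in vitamin samples, against 84459, 220964 and 187356 in saline samples. Thus the saline sample of replicate 1 had the highest leukocyte sum and the lowest granulosa sum of the 6 samples. Its CYP19A1 was at 7.40 in normalised log2 intensity, against 13.57 and 13.84 in the other saline samples. Its granulosa sum rested mainly on the markers SERPINE2 (15.58, against 15.78 and 15.84) and GATM (14.09, against 7.90 and 8.23). In replicate 1, 9 of the 11 granulosa markers were higher with vitamins and 2 lower, GATM among the lower. In an RNA extract, fewer cells of a type and less RNA per cell cannot be told apart. Results that rest on replicate 1 are given below with and without it.

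Among the 5 genes, PTX3 was the one with more signal in vitamin samples in every replicate, by 37.9-fold, 8.06-fold and 2.13-fold. TNFAIP6 and VCAN were higher with vitamins in replicates 1 and 3 and lower in replicate 2. CD44 was lower with vitamins in replicate 1 and slightly higher in the other replicates, and HAS2 was at the edge of detection. By limma with Benjamini-Hochberg adjustment over all tested probes, 0 of the 5 members passed, and 0 of the 26688 tested probes did (0% called in either direction). At an unadjusted p under 0.05, 1244 probes passed, or 4.66% of all tested, and 1 of the 5 members was among them. The mean ratio was above 0 for 3 members (51.4% of all tested probes) and below 0 for 2 (48.6%). A ratio above 0 in all 3 replicates was seen for 1 of the 5 members and for 11.9% of tested probes, and a ratio below 0 in all 3 for 0 members and 11.7% of probes. On all 6 arrays, 1 member lay above 0 (3.87% of probes) and 0 lay below it (4.24%).

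**Figure D1:**
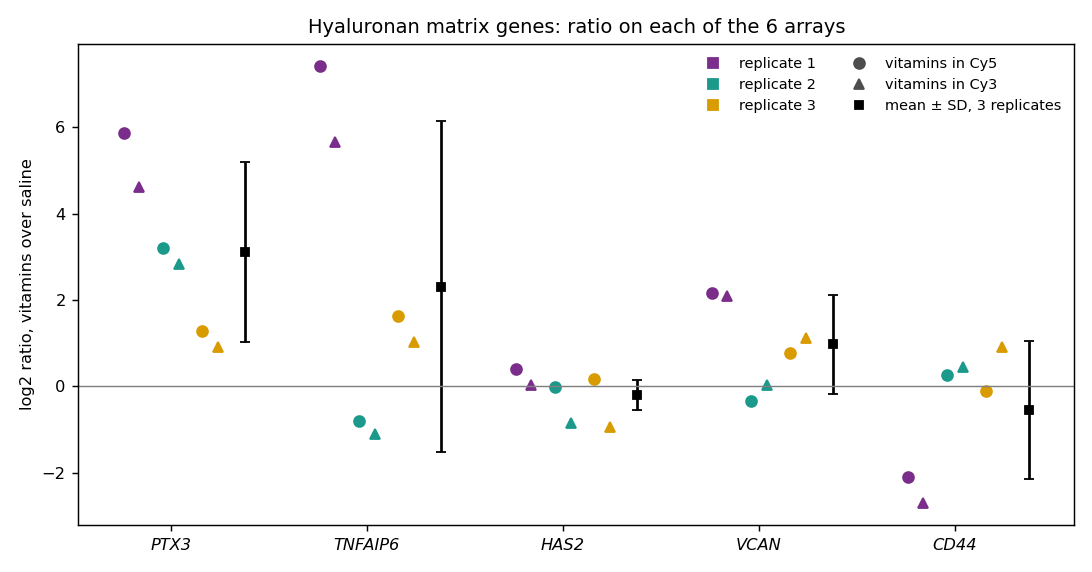
Log2 ratio of vitamins over saline (vertical axis) for the 5 genes on each of the 6 arrays; colours mark the replicates, circles arrays with vitamins in Cy5 and triangles those with vitamins in Cy3, and black squares the mean ± SD of the 3 replicates. PTX3 lies above 0 on all 6 arrays, the replicate ratios of TNFAIP6 run from -0.94 (replicate 2) to 6.54 (replicate 1), and CD44 is at -2.40 in replicate 1 against 0.35 and 0.40 in the other replicates.

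PTX3 had the clearest separation within arrays. Its median spot intensity in vitamin samples was 45096 and 40093 on the arrays of replicate 1, 2143 and 1689 on those of replicate 2, and 389 and 391 on those of replicate 3. The saline samples on the same arrays gave 990 and 1733, 257 and 186, and 270 and 175. On each array the vitamin sample was thus the brighter, but the groups overlapped across arrays, because the saline sample of replicate 1 was brighter than both vitamin readings of replicate 3. The saline readings of replicates 2 and 3 lay close to the detection limit, set for each array and channel at 2 SD above the mean of its negative-control spots. On array 6 the saline reading of 175 stood against a limit of 167, and on array 4 the reading of 186 against 139. A ratio taken against so dim a spot is compressed by the offset of 50 that the background correction adds.

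The log2 ratios of PTX3 were 5.87 and 4.62 on arrays 1 and 2, 3.20 and 2.83 on arrays 3 and 4, and 1.27 and 0.90 on arrays 5 and 6. Both arrays of a pair were on the same side of 0 each time, and they differed by 1.24, 0.37 and 0.37. The mean of the 3 replicates was 3.11 ± 2.08 (SD, n = 3), an 8.66-fold higher intensity in vitamin samples, with a 95% confidence interval from 0.87 to 5.35. The call was not passed by limma's moderated test (adjusted p = 0.99977 over all probes). PTX3 ranked 3 of 26688 probes in the size of its mean ratio but 456 by its p, as its replicates spread widely. It was also 1 of the 20 probes, or 0.0749% of those tested, that were at least 2-fold higher in all 3 replicates. Without replicate 1, which leaves a single slide, the mean ratio was 2.05, and with the slide as a block it was 3.65. In that fit each slide counts equally, so replicate 1, alone on its slide, weighs more than in the main mean. The largest PTX3 ratio, in replicate 1, was taken against the saline sample with the high leukocyte sum and low granulosa sum. What part this played was not tested.

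PTX3 also varied widely between replicates. Its normalised log2 intensity was 15.57, 10.79 and 8.74 in the vitamin samples of replicates 1, 2 and 3, against 10.32, 7.78 and 7.65 in the saline samples. Replicate 1 was highest in both groups, and replicate 3 was lowest in the vitamin samples. The saline samples of replicates 2 and 3 differed little, with spot intensities of 257 and 186 against 270 and 175. Both lay close to the detection limit, so no order is read between them. Normalised levels were set across arrays by quantile normalisation of the mean intensities. They thus depend on that scaling more than a ratio within an array does.

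TNFAIP6 was bright in 5 of the 6 RNA samples. Its vitamin samples gave intensities of 62704 and 62556 on the arrays of replicate 1, 10989 and 10818 on those of replicate 2, and 48103 and 47600 on those of replicate 3. The saline samples on the same arrays gave 454 and 1340, 20956 and 24538, and 15076 and 23412. The saline sample of replicate 1 was therefore the low one, and the other saline samples lay above the vitamin sample of replicate 2. The highest vitamin reading was 95.7% of the scanner's maximum, so the range left above it was small.

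The log2 ratios of TNFAIP6 were 7.43 and 5.65 on arrays 1 and 2, -0.79 and -1.10 on arrays 3 and 4, and 1.62 and 1.02 on arrays 5 and 6. By replicate they were 6.54, -0.94 and 1.32, which is 93-fold higher, 1.93-fold lower and 2.5-fold higher with vitamins. The mean was 2.31 ± 3.84 (SD, n = 3), with a 95% confidence interval from -1.79 to 6.40, and it did not pass limma's test (adjusted p = 0.99977). Replicate 1 carried the mean: without it the ratio was 0.19, with opposite signs in the other replicates. With the slide as a block, which gives replicate 1 more weight, the ratio was 3.36. The saline sample of replicate 1, in which TNFAIP6 had its lowest level (9.60 on the normalised log2 scale, against 14.39 and 14.13 in the other saline samples), was also the sample with the leukocyte sum of 83726 and the granulosa sum of 84459. The part of that difference in the TNFAIP6 result was not tested.

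**Figure D2:**
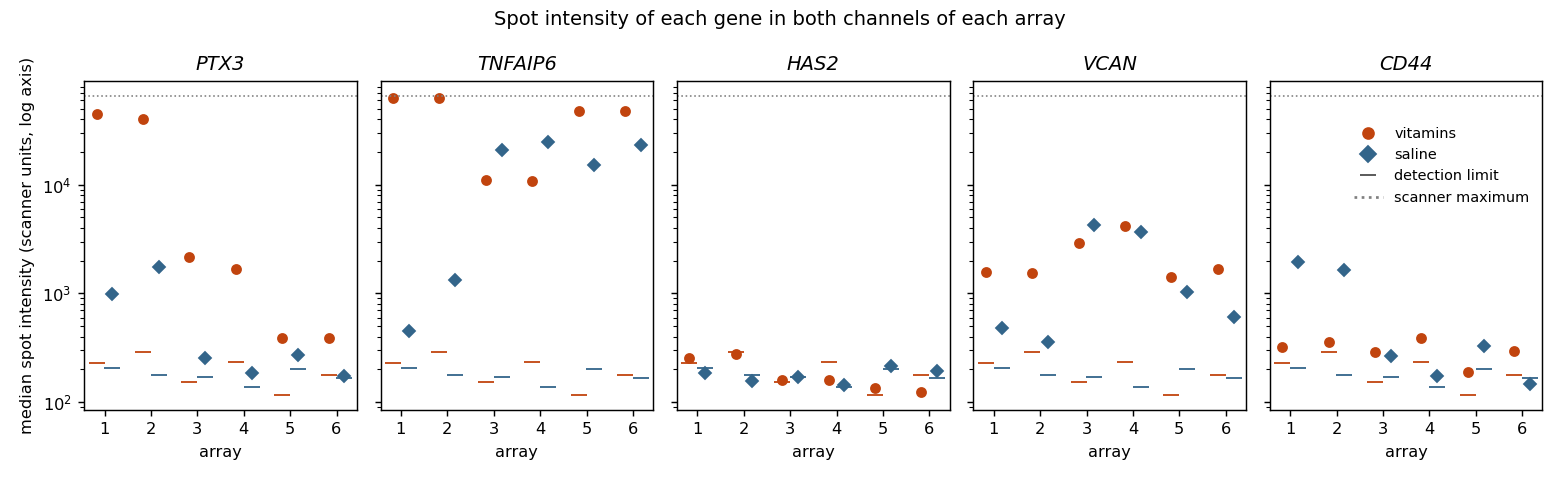
Median spot intensity (vertical log axis, scanner units) of each gene on arrays 1 to 6; circles are vitamin samples, diamonds saline samples, short bars the detection limit of the array and channel, and the dotted line the scanner maximum. PTX3 in vitamin samples lies between 389 (array 5) and 45096 (array 1), above the saline sample on every array, TNFAIP6 is bright everywhere except in the saline sample of arrays 1 and 2, and HAS2 stays at the detection limit.

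HAS2 was barely measurable. Its 6 vitamin readings ran from 123 to 276 and its 6 saline readings from 143 to 214, beside detection limits from 117 to 288. It was detected in 3 of 6 vitamin readings and 3 of 6 saline readings, exactly the minimum of 6 of 12 that admitted a probe to the test. All 3 detected vitamin readings came from arrays with vitamins in Cy5. The log2 ratios were 0.39 and 0.02 on arrays 1 and 2, 0.00 and -0.84 on arrays 3 and 4, and 0.16 and -0.93 on arrays 5 and 6.

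Averaged over dye orientation, the HAS2 ratio was 0.18 with vitamins in Cy5 and -0.58 with vitamins in Cy3. A dye term fitted over the 6 arrays was 0.38 in favour of Cy5 (adjusted p = 0.0759 by limma), the largest in relation to its error among the 5 genes. Averaging a dye-swapped pair removes it, and the mean was -0.20 ± 0.35 (SD, n = 3) for HAS2, with a 95% confidence interval from -0.74 to 0.34 (limma adjusted p = 0.99977). The replicate ratios were 0.21, -0.42 and -0.38. At this signal over background no difference in HAS2 was detectable, and the interval bounds the ratio of these dim spots, not the fold change of the transcript. HAS1, another hyaluronan synthase, had no named probe. HAS3, the remaining synthase, was at 0.23 ± 0.14 (SD, n = 3), with 6 of 6 vitamin readings and 4 of 6 saline readings above the limit.

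VCAN was detected in all 12 readings. Its vitamin samples had intensities of 1559 and 1541 in replicate 1, 2884 and 4203 in replicate 2, and 1405 and 1681 in replicate 3. The saline samples had 483 and 360, 4247 and 3681, and 1029 and 612. In replicates 1 and 3 the vitamin sample was thus the brighter on both arrays, and in replicate 2 the arrays were split. The log2 ratios were 2.17 and 2.10 on arrays 1 and 2, -0.34 and 0.03 on arrays 3 and 4, and 0.77 and 1.12 on arrays 5 and 6.

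The dye-swapped arrays of VCAN agreed most closely of the 5 genes, with a mean gap of 0.26. Over all tested probes the median gap was 0.34 and the upper quartile 0.47. The other members had mean gaps above that quartile, from 0.60 (CD44) to 0.89 (TNFAIP6). The replicate ratios of VCAN were 2.14, -0.15 and 0.94. Their mean was 0.98 ± 1.14 (SD, n = 3), a 1.97-fold higher intensity. The 95% confidence interval ran from -0.30 to 2.25, and limma's test was not passed (adjusted p = 0.99977). Without replicate 1 the ratio was 0.40, and it was 1.27 in a fit blocked by slide, which gives replicate 1 more weight. In vitamin samples VCAN was at 10.60, 11.75 and 10.59 on the normalised log2 scale in replicates 1, 2 and 3, while the saline samples ran from 8.46 in replicate 1 to 11.90 in replicate 2. The saline sample of replicate 1, with its high leukocyte sum and low granulosa sum, was the lowest of them, and what part this played was not tested.

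CD44 was dim in 5 of the 6 RNA samples. The vitamin samples gave 320 and 355 in replicate 1, 291 and 393 in replicate 2, and 188 and 295 in replicate 3. The saline samples gave 1939 and 1641, 265 and 173, and 327 and 148. The saline sample of replicate 1 was the bright one, and the rest lay within a few-fold of the detection limits. The gene was detected in 6 of 6 vitamin readings and 5 of 6 saline readings.

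The log2 ratios of CD44 were -2.10 and -2.71 on arrays 1 and 2, 0.26 and 0.45 on arrays 3 and 4, and -0.11 and 0.90 on arrays 5 and 6. In replicate 1 the vitamin sample was 5.29-fold lower than the saline sample, and in the other replicates it was 1.28-fold and 1.32-fold higher. The mean was -0.55 ± 1.60 (SD, n = 3), with a 95% confidence interval from -2.30 to 1.19 (limma adjusted p = 0.99977). The sign of the mean rested on replicate 1, since without it the ratio was 0.37. With the slide as a block, which gives replicate 1 more weight, the ratio was -1.01. Normalised log2 levels in vitamin samples were nearly constant (8.18, 8.18 and 8.04), whereas the saline samples were at 10.58, 7.83 and 7.64.

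CD44 and the leukocyte markers were both lower with vitamins in replicate 1 and higher in replicate 2, and they differed in sign in replicate 3. Of the 16 leukocyte markers tested, 16 were lower with vitamins in replicate 1, 3 in replicate 2 and 11 in replicate 3, and their median ratios were -3.26, 1.09 and -0.11. Within the list CD163, a macrophage scavenger receptor, had -5.37, 2.15 and 1.25 in the 3 replicates, and CD53, a leukocyte tetraspanin, -5.39, 2.05 and -0.16. PTPRC, the pan-leukocyte antigen CD45, did not follow them, with -0.14, 0.40 and -0.09 at its only tested probe. CD14, a monocyte receptor, was detected in 5 of 12 readings, with a highest intensity of 1895, and was not tested. The part of leukocyte RNA in the CD44 result was not tested.

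**Figure D3:**
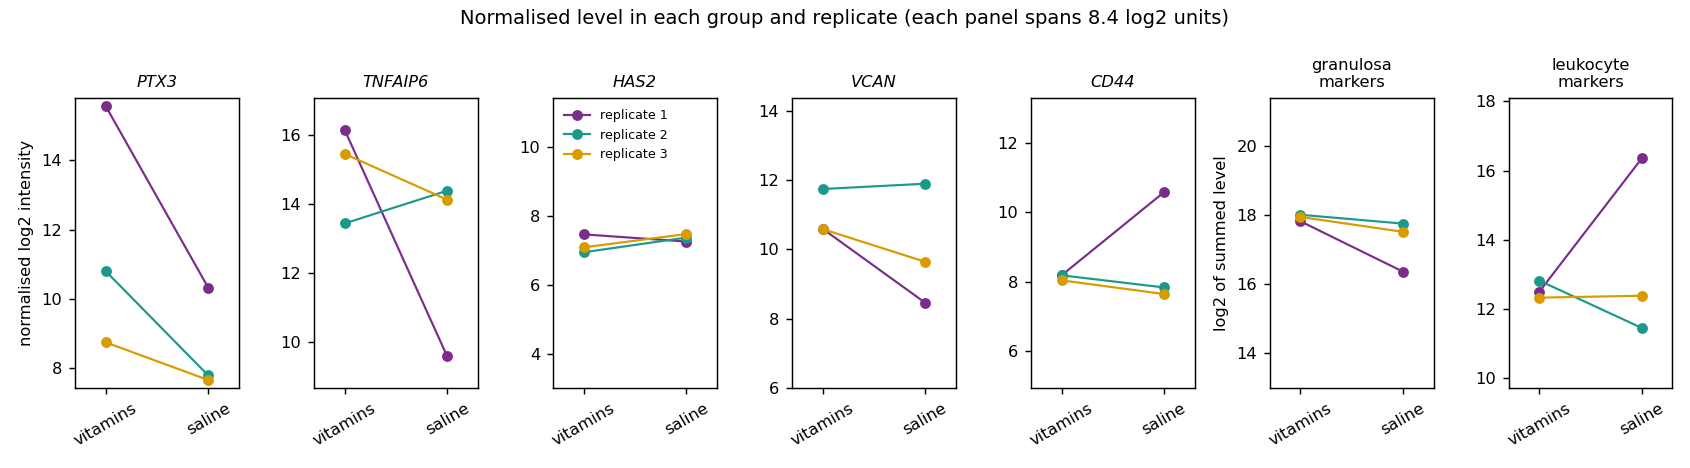
Normalised log2 intensity of each gene in vitamin and saline samples (left and right in each panel, 1 line per replicate, mean of 2 arrays), with the log2 of the summed level of 11 granulosa and 16 leukocyte markers in the last panels. The saline sample of replicate 1 is low for TNFAIP6, VCAN and the granulosa markers and high for CD44 and the leukocyte markers, whereas PTX3 is high in both samples of replicate 1.

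The members differed in which samples set their spread. Across replicates the SD of the normalised log2 level was 3.50 in vitamin samples and 1.51 in saline samples for PTX3. For the other genes that varied, it was larger in the saline samples. TNFAIP6 had SDs of 1.40 in vitamin samples and 2.69 in saline samples, VCAN 0.67 and 1.75, and CD44 0.08 and 1.65 in the same order. HAS2 varied little, with 0.27 in vitamin and 0.11 in saline samples. Replicate ratios spanned at least 1 log2 unit in 4 of the 5 members, which was so for 29.9% of all tested probes, and in those 4 the ratio of largest size was that of replicate 1. Over all tested probes, too, ratios spread most in replicate 1, with an SD of 0.77, against 0.59 and 0.41 in replicates 2 and 3. The 2 arrays of a pair gave opposite signs in 3 of the 15 pairs of the 5 genes, and the share over all tested probes was not computed.

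Markers of other cells in the follicle wall gave the following values. Epithelial markers, 6 tested, had median ratios of -0.67, 4.12 and 0.19 in the 3 replicates. KRT8, a keratin of simple epithelia, had normalised log2 levels of 15.59, 15.63 and 9.58 in vitamin samples against 15.78, 8.76 and 9.67 in saline samples. It was thus high in both samples of replicate 1 and in the vitamin sample of replicate 2. KRT18, another keratin, shared that pattern, at 10.85, 11.37 and 7.51 in vitamin samples against 12.00, 7.55 and 7.35 in saline samples. Some other epithelial markers did not. EPCAM, an epithelial adhesion molecule, was at 7.13, 11.71 and 7.94 in vitamin samples against 10.34, 6.87 and 6.96 in saline samples, and KRT7 stayed between 7.27 and 7.46 in all samples. The part of epithelial RNA in the PTX3 result was not tested. The summed level of 9 theca and stroma markers was 25526, 13740 and 5540 in vitamin samples, against 33453, 6060 and 21220 in saline samples. CYP17A1, the androgen-making enzyme of theca, stayed between 7.31 and 7.55 on the log2 scale in all samples. For endothelium, the sums of 4 markers lay between 848 and 982 in vitamin samples and between 878 and 1051 in saline samples, and PECAM1 was detected in 0 of 12 readings. For the oocyte, 5 markers summed to 936 to 1136 in vitamin samples and 997 to 1128 in saline samples, and ZP3, a zona pellucida protein, had a mean ratio of 0.00.

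Genes that feed, hold, read or remodel hyaluronan were examined as lists beside the members. Over all tested probes the median ratio was 0.01, and over the 10938 named genes, each by its brightest tested probe, 12.8% were above 0 and 12.4% below 0 in all 3 replicates. On all 6 arrays 5.03% of named genes were above 0 and 5.19% below it, 51.2% had a mean above 0 and 48.8% below it, and 35.7% spanned at least 1 log2 unit between replicates. An unadjusted p under 0.05 was reached by 6.14% of named genes. Of the 48 genes tested in the 6 lists, 8 (16.7%) were above 0 and 5 (10.4%) below 0 in all 3 replicates. Across the lists 0 genes passed limma's adjusted test in either direction (0% of named genes).

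Of the genes that make hyaluronan and its sugar precursors, 8 of 9 were tested, with 2 above and 6 below 0 and a median of -0.21. GFPT2, a first enzyme of the hexosamine pathway, had ratios of 1.36, 2.06 and 1.26 in the 3 replicates, with a mean of 1.56 ± 0.44 (SD, n = 3; limma adjusted p = 0.870), and it was the 1 gene of the list with an unadjusted p under 0.05. Its paralogue GFPT1 was at -0.29 ± 0.17 (SD, n = 3) and PGM3, a later enzyme of the same route, at -0.36 ± 0.26 (SD, n = 3). UGDH, which makes the glucuronate donor, had -0.48, -0.29 and 0.09. GFPT2 was thus the precursor gene with a ratio above 1 in every replicate, while the other tested genes of the list lay between -0.38 and 0.23.

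Among proteins that bind or cross-link hyaluronan, 11 of 17 genes were tested, with 6 above and 5 below 0 and a median of 0.09. HAPLN3, a link protein that fastens proteoglycans to hyaluronan, had 0.40, 0.93 and 0.35 in the 3 replicates (mean 0.56 ± 0.32, SD, n = 3). FBLN1, a fibulin of the versican network and cofactor of ADAMTS1, had 2.30, 0.35 and 1.15 (mean 1.27 ± 0.98, SD, n = 3), with detection in 6 of 6 vitamin and 4 of 6 saline readings. HAPLN1, another link protein, was detected in 2 of 12 readings and not tested. ITIH1, ITIH2 and ITIH3, the heavy chains that TNFAIP6 transfers, stood at -0.09, 0.00 and -0.06. They reach the follicle mainly from plasma, and ITIH3 was detected in 3 of 6 readings of each group.

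Of the hyaluronan receptors and degrading enzymes, 6 of 14 were tested, with 4 above and 2 below 0 and a median of 0.12. The sign of that median turned with the replicates used, since it was 0.35 without replicate 1, -0.22 without replicate 2 and -0.15 without replicate 3. LYVE1 and STAB1, receptors of lymphatic endothelium and macrophages, had -1.07, 0.94 and 0.48 and -2.81, 2.33 and 0.89 in the 3 replicates, with the sign pattern of CD44. CEMIP2, a cell-surface hyaluronidase, had -2.13, 0.33 and -0.23. GUSB, a lysosomal glucuronidase, was at 0.32 ± 0.29 (SD, n = 3) and LAYN, or layilin, at -0.20 ± 0.08 (SD, n = 3). HMMR, a hyaluronan-binding protein of the mitotic spindle, was detected in 5 of 12 readings and not tested.

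Of the versican-cleaving proteases, 3 of 6 were tested, with a median of 0.12. ADAMTS1, which cuts versican in the ovulating follicle, had 2.59, 1.41 and 1.04 in the 3 replicates. That is also the replicate order of PTX3, but the share of tested probes with this order was not computed. The mean of ADAMTS1 was 1.68 ± 0.81 (SD, n = 3), with a limma adjusted p = 0.979. ADAMTS5 was at -0.34 ± 0.22 (SD, n = 3), but with 0.34 for vitamins in Cy5 and -1.03 for vitamins in Cy3. ADAMTS4 had a mean of 0.12 ± 0.17 (SD, n = 3).

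The signals that start cumulus expansion had 14 of 23 genes tested, 6 above and 8 below 0, with a median of -0.06. LHCGR, the LH receptor, had 2.89, 0.26 and 1.05 at its brighter probe and a mean of 0.14 at the other. AREG, an EGF-like ligand released after the LH surge, was at 0.06 ± 0.02 (SD, n = 3), and 4 of 6 readings of each group lay above the limit. PTGS2, which makes the prostaglandin of the same cascade, had 3 probes, none of them detected in more than 3 of 12 readings, and EREG had no named probe. SMAD2, a transducer of oocyte GDF9 and of activin, had -0.27, -1.16 and -0.01, with means of -0.48 and -0.18 at its 2 probes. Around CD44, 6 of 8 partner genes were tested, with a median of 0.07. SPP1, or osteopontin, a ligand of CD44 that macrophages secrete, had -6.90, 2.96 and -1.46, and NF2, or merlin, was at 0.14 ± 0.18 (SD, n = 3).

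**Figure D4:**
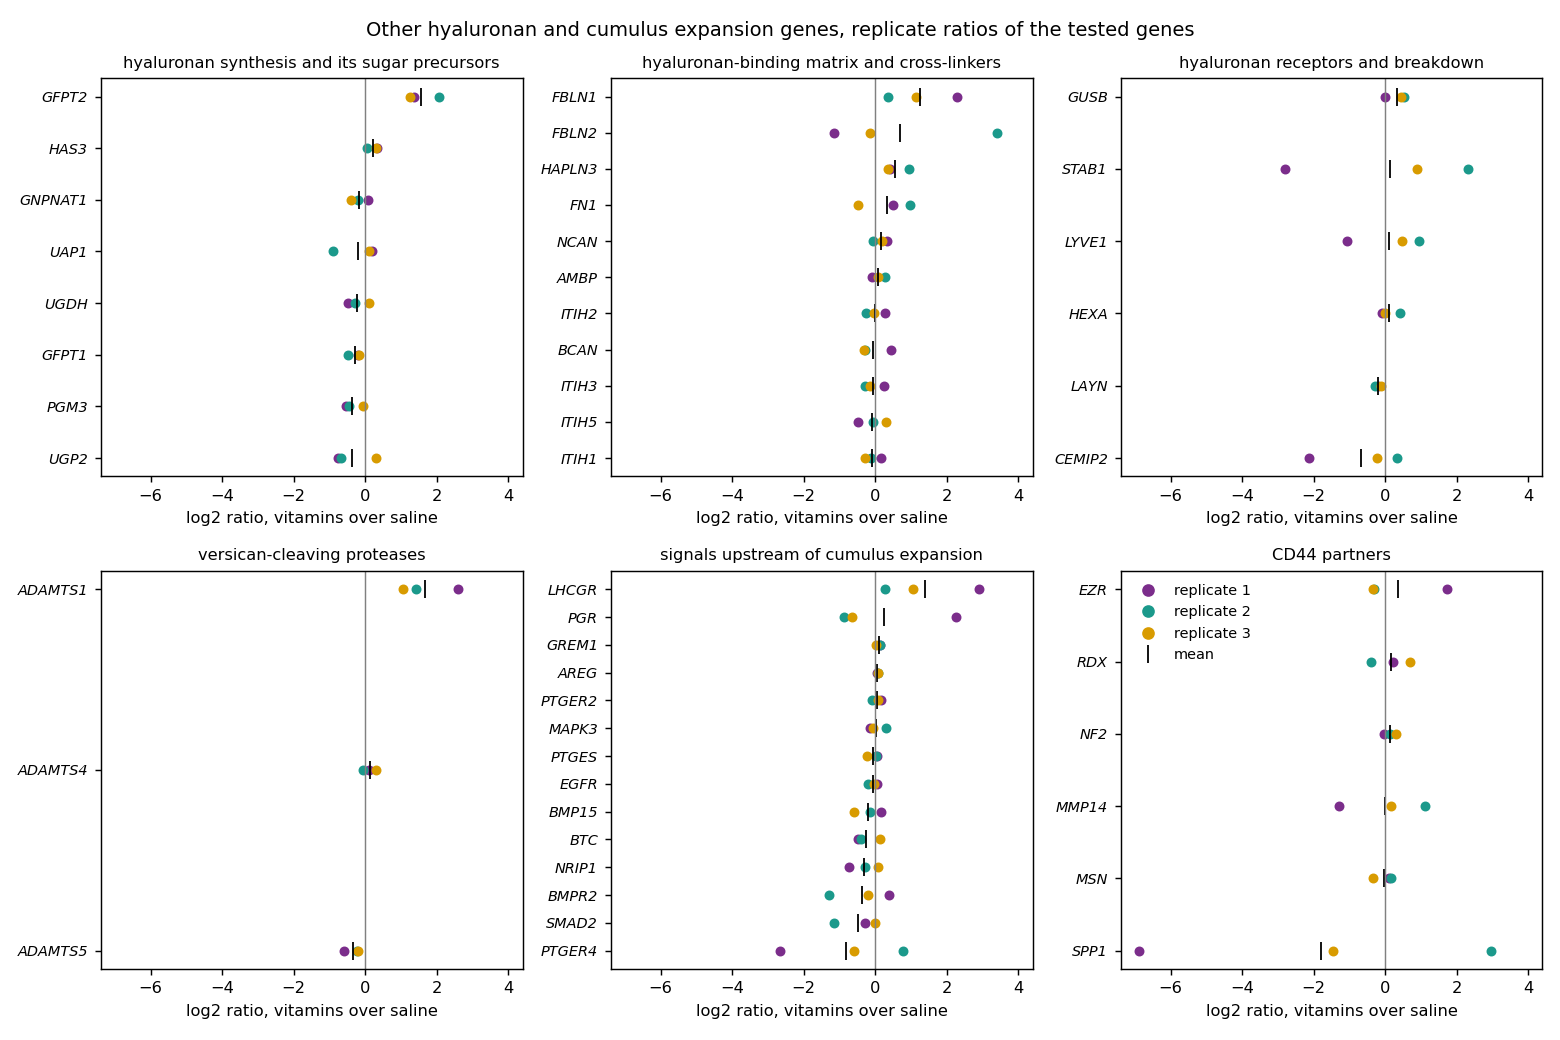
Log2 ratio of vitamins over saline (horizontal axis) for the tested genes of the 6 lists around hyaluronan; coloured points are the 3 replicates and the black tick their mean, with genes sorted by mean within a list. All 3 points lie above 0 for 8 genes (GFPT2, HAS3, FBLN1, HAPLN3, ADAMTS1, LHCGR, AREG and GREM1) and below 0 for 5 (GFPT1, PGM3, LAYN, ADAMTS5 and SMAD2). Each point averages 2 arrays. Single arrays lay on both sides of 0 for HAS3, AREG, GREM1, PGM3, LAYN, ADAMTS5 and SMAD2. Of these, AREG and ADAMTS5 were above 0 on 3 of 6 arrays. Replicate 1 lies below -2 for SPP1, STAB1, PTGER4 and CEMIP2.

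The genes most like each member were sought over the 6 array ratios, by the smallest root mean square difference among 10937 other named genes, each by its brightest tested probe. For PTX3 these were ACSM1 (difference 1.13), CYP19A1 (1.18) and ASB9 (1.27). CYP19A1 had ratios of 3.59, 2.12 and 0.92 in the 3 replicates, against 5.24, 3.01 and 1.09 for PTX3, while the means of its 3 probes ran from 0.10 to 2.21. For TNFAIP6 they were SLC35G1 (1.28), SERPINA5 (1.32) and INHA (1.63), the last the alpha subunit of inhibin. INHA shared the large value in replicate 1 (4.37) but was above 0 in replicate 2 (0.37), where TNFAIP6 was at -0.94. The INHA ratio depended on the dye, with 3.04 for vitamins in Cy5 and 0.82 for vitamins in Cy3, and 4 of 6 arrays were above 0. For VCAN they were NCEH1 (0.32), SEMA6C (0.32) and PLEKHB1 (0.34). For CD44 they were WDFY4 (0.26), PLXDC1 (0.32) and MGAT4A (0.33). HAS2 varied too little between replicates for such a search. These likenesses describe 6 arrays of 3 pairs of samples, and all of them share the same saline and vitamin RNA.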

How the data were processed

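Gene expression was measured on 6 two-colour Agilent arrays of 45220 spots, 43794 of them gene probes. Per the labels' protocols, extraction used the PicoPure kit, the RNA was amplified over several rounds to antisense RNA with the RiboAmp HSPlus kit and coupled to the dyes Cy3 or Cy5 by ULS chemistry. Amplification of scarce RNA can distort ratios, and both arrays of a pair would share it. Per the file headers, the deposited scanner output holds the median intensity of each spot and of its local background in both channels. A further deposited table holds the authors' log2 ratios, whose background correction, normalization and centring stay unknown. It correlated with the ratios computed here at r = 0.815 to 0.950 per array, always as vitamins over saline, had medians from -0.0179 to 0.0149, and served as an alternative.

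Ratios were computed in R 4.3.3 with limma 3.58.1. Intensities were corrected with normexp (offset 50) and normalized by loess within arrays with control spots at weight 0; ignored spots (2 to 71 per array) were left out. A reading counted as detected when it exceeded, in its array and channel, the mean of 153 negative-control spots by 2 SD, and between 53.0% and 68.7% of gene probes were. Probes detected in 6 or more of 12 readings were tested, and 1 of 26689 such probes had no value in a replicate. Ratios were turned to vitamins over saline and averaged over the 2 arrays of a replicate. Of the possible dye-swap pairings, that with the highest sum of correlations was used (2.26, against 0.699 for the next). A two-sided moderated test (lmFit, eBayes) set the 3 ratios against 0, with p-values adjusted over all probes by Benjamini-Hochberg and a threshold of 0.05. Levels per channel were made comparable across arrays by Aquantile. Steps were tested on simulated data.

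The platform annotation named 21790 probes by 1 symbol, 0 by several and left 22004 unnamed; 20025 symbols were those of RefSeq's genes for assembly ARS-UCD2.0, and another 1524 were renamed where only 1 gene listed the old name. No coordinates or sequences were used here. Beside the 5 members, genes were named by a rule: the 2 of lowest unadjusted p in each list, markers that define a cell type, ADAMTS1, HAPLN1, HMMR, AREG and PTGS2 in every case, and the 3 genes most like each member that spanned at least 1 log2 unit. All other genes named were chosen after their values were seen. The brightest tested probe stood for a gene. Members and lists were chosen with earlier results of these data known.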

Additional observations from a re-analysis of the deposited data

How the results depend on the processing

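The test across all probes called 0 probes in the main analysis and under each of the 16 alternatives that allow a test, among them no background correction, median centring, other filters on dim probes, slide as a block, a dye term over 6 arrays, an intensity trend and the deposited table. Over the alternatives PTX3 ranged from 2.05 to 5.24, TNFAIP6 from 0.19 to 6.54 and VCAN from 0.40 to 2.14, each above 0 in 17 of 17, and 0 of the adjusted p-values passed (lowest 0.192 for PTX3). That count is no independent support. Other filters on dim probes, the dye term, the intensity trend and the next-best pairing leave a mean unchanged by construction. The slide of replicates 2 and 3 alone repeats the run without replicate 1. In replicate 2 by itself TNFAIP6 and VCAN were below 0. HAS2 turned to 0.21 on the slide of replicate 1 alone and to 0.18 on arrays with vitamins in Cy5 alone, and CD44 to 0.37 without replicate 1, which is also the other slide alone; the cause was not tested. Leaving out each replicate gave 2.05 to 4.13 for PTX3, 0.19 to 3.93 for TNFAIP6, -0.40 to -0.09 for HAS2, 0.40 to 1.54 for VCAN and -1.03 to 0.37 for CD44. HAS2 and CD44 drop out where all 12 readings must be detected. With the filter at all 12 readings, the list median of the versican-cleaving proteases was 1.68, since it then rests on ADAMTS1. The small median of the upstream signals turned to 0.02 and that of the CD44 partners to -0.02 without replicate 3. Both also changed sign under some other alternatives, such as 0.05 for the upstream signals on the slide of replicate 1 alone and -0.04 for the CD44 partners in the deposited table. The median of the versican-cleaving proteases was -0.21 on arrays with vitamins in Cy3 alone. Members have 1 probe each, so the choice of probe touched only the lists. The test is paired by construction, as each ratio sets both groups on 1 array. Such pairing by array does not mean that the animals of the groups were matched. Dim signal limits HAS2, CD44 and the saline readings of PTX3.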
